A study of Homo sapiens with 18 samples.

Results

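The regions described here are H3K4me3 sites of H2087-LCC lung adenocarcinoma cells (LCC) that had no H3K27ac summit of either LCC replicate within 2 kb. H3K4me3 summits with a score of at least 10 were taken, and those within 1 kb of each other were merged. The score is the value that the authors' peak caller gave each summit, on a −log10 scale of either p or q. Of 21906 such LCC H3K4me3 summits, 4007 had no H3K27ac summit nearby, and they merged into 3993 sites of 21830 LCC H3K4me3 sites in all. At 15758 other sites both H3K27ac replicates had a summit within 2 kb (acetylated sites below), and 2083 sites had a summit of 1 replicate only. A further 4143 LCC H3K4me3 summits scored below 10 and were not used. The members were chosen by the LCC H3K4me3 scores and the LCC H3K27ac summits, so those values are given as a description.

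H3K4me3 is a histone mark of promoters, H3K27ac marks active promoters and enhancers, and H3K4me1 marks enhancers and the flanks of active promoters. Promoters with H3K4me3 and little acetylation are known from CpG-rich genes that are silent or weakly transcribed, often with the Polycomb mark H3K27me3 beside it. H3K27me3 and transcription were not analysed here, so the sites are named by their marks alone.

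Chromatin immunoprecipitation with sequencing was done in 4 conditions: LCC, LCC treated with TGF-β1 for 4 days (TGFb), H2087-LCC-SO1 (SO1) and H2030. The TGF-β1 concentration in the labels, 100 nM, is far above what is usual in culture, and no file here bears on it. LCC, TGFb and SO1 derive from the H2087 line by name, H2030 is a separate lung adenocarcinoma line, and the label gives no other detail of SO1. H2030 was grown in a simpler medium without the hormones and growth factors of the H2087-LCC medium, so line and medium cannot be told apart in that comparison. LCC H3K27ac had 2 biological replicates and every other combination of condition and mark 1 library, so comparisons of conditions carry no p-value. Wilson 95% intervals are given with shares, and they cover counting error only. The 13 lists held 947675 summits without widths or read counts, so the depth of each library is unknown, and a score was read against the median score of its own list.

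The sites lacking H3K27ac were mostly weak H3K4me3 sites. Their LCC H3K4me3 score ran from 10.04 to 599.6, with a median of 45.3 and quartiles of 20.0 and 116. The median of the LCC H3K4me3 list was 189, and 564 of the 3993 sites (14.1%) reached it. The acetylated sites had a median of 424, and 73.8% of them reached the list median. Sites lacking H3K27ac made up 39.5% of all LCC H3K4me3 sites with a score between 10 and 20, and their share was still 34.7% between 100 and 200. Above 200 they were 515 of 12866 sites, or 4.00%. Sites lacking acetylation thus took a similar part of the weak and middling H3K4me3 sites and a small part of the strong ones.

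Most sites lay far from LCC acetylation. The median distance to the nearest LCC H3K27ac summit was 32.6 kb for replicate 1 and 27.4 kb for replicate 2, and the largest was 3364 kb. At acetylated sites those medians were 79.5 and 70 bp. Of the 3993 sites, 2957 had no LCC H3K27ac summit within 10 kb, which was 13.5% of all LCC H3K4me3 sites. These 2957 are called isolated sites and are given beside the whole set, because the other 1036 had acetylation near enough that the label may depend on where a summit was placed.

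**Figure D1:**
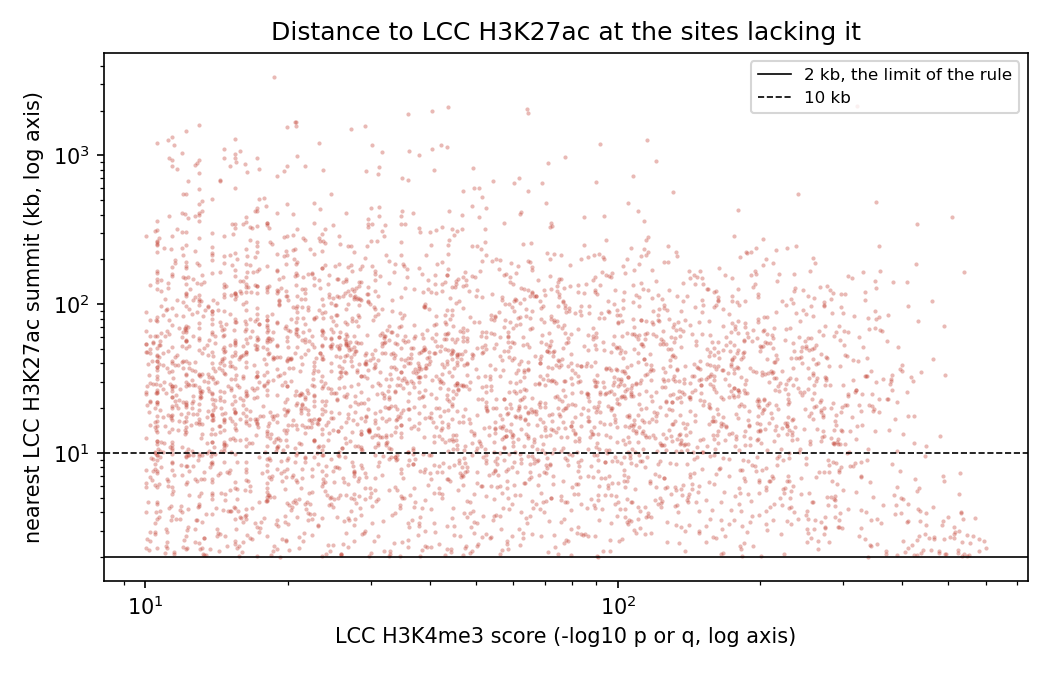
Each point is 1 of the 3993 LCC H3K4me3 sites lacking H3K27ac, with its H3K4me3 score on the horizontal log axis and the distance to the nearest LCC H3K27ac summit of either replicate in kb on the vertical log axis. Solid and dashed lines mark 2 and 10 kb, and the points of the highest score lie just above 2 kb.

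The strongest of the sites were the exception. All 10 sites with the highest H3K4me3 score had an LCC H3K27ac summit between 2017 and 3672 bp away, and 9 of the 10 had one within 3 kb. The highest-scoring summit within 10 kb of each of these 10 sites, which need not be the nearest, had a median score of 115 in replicate 1 and 198 in replicate 2. It reached the median of its list at 10 of the sites in replicate 1 and 9 in replicate 2. Of the 100 strongest sites 72 had a summit within 10 kb, against 24.1% of the sites with a score between 10 and 20. Of the 515 sites with a score of 200 or more, 192 (37.3%) had one, so most sites of that range were farther from acetylation. Lying beside LCC acetylation was thus a trait of the very highest ranks. Both values were used by the rule, so this is a description.

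The single sites show both cases. The strongest site, chr1:156084794 in hg19 (score 599.6), had its nearest LCC H3K27ac summit of replicate 1 at 2283 bp with a score of only 4.07, and the nearest of replicate 2 lay 6909 bp away. The site at chr1:156470352 (581.9) had summits of 267.5 and 283.3 at 2657 and 2642 bp. At chr11:69456218 (553.7) they lay at 2072 and 2055 bp with scores of 132.8 and 260.8, and the summits of TGFb, SO1 and H2030 lay 2050, 2074 and 2053 bp away. The acetylation beside that site was thus found at nearly the same distance in all 4 conditions. The files give 1 bp summits, and whether an acetylated domain reached over such a site cannot be told apart from its absence.

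The thresholds of the rule fell within continuous ranges. Just inside the score threshold were chr13:27610535 (10.04), chr12:4417274 and chr17:16649041 (both 10.04), and just outside it chr19:5536668 (9.99), chr10:32848006 and chr6:31334706 (both 9.98). Just inside the distance threshold were chr12:124873711, with its nearest summit at 2009 bp, and chr3:193809840 and chr8:62674597, both at 2015 bp. Just outside it were chr17:27942901 and chr9:116916447, both at 1998 bp, and chr6:26126232 at 1995 bp. There were 160 LCC H3K4me3 summits with the nearest H3K27ac between 1.5 and 2 kb and 123 between 2 and 2.5 kb. A site held 2 merged summits in 14 cases, among them chr11:1592848-1593810, chr19:57683103-57683873 and chr21:9926458-9927337, and 1 summit in all others.

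H3K27ac of the other conditions, read within 1 kb, was present at a minority of the sites. TGFb had a summit at 742 of the 3993 sites, 18.6% (17.4 to 19.8), against 77.9% of all LCC H3K4me3 sites. SO1 had one at 864 sites, 21.6% (20.4 to 22.9), against 75.6% of all sites. H2030 had one at 1111 sites, 27.8% (26.5 to 29.2), against 64.8% of all sites. H2030 had the highest share here and the lowest over all sites. The order of the conditions depended on LCC replicate 2. Of the 5566 sites lacking replicate 1, with or without replicate 2, TGFb had H3K27ac at 35.1%, SO1 at 33.2% and H2030 at 33.5%. Isolated sites gave 17.2%, 22.7% and 27.4%, close to the whole set. The sites were chosen as low for this mark in LCC, and nothing is read from the order of the conditions or from the distance to the background.

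**Figure D2:**
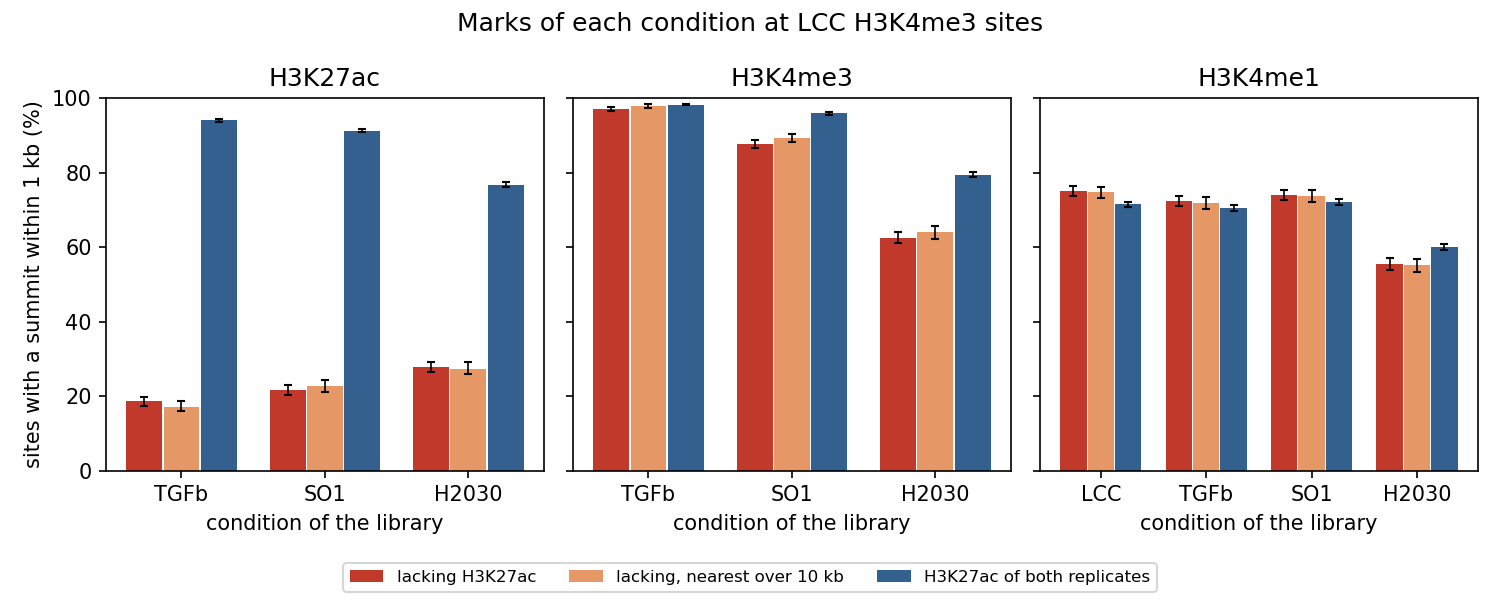
Bars give the percentage of LCC H3K4me3 sites with a summit of each library within 1 kb, for the 3993 sites lacking H3K27ac, the 2957 of them whose nearest LCC H3K27ac lay over 10 kb away, and the 15758 acetylated sites; error bars are Wilson 95% intervals. H3K27ac separates the sets in all 3 other conditions, whereas TGFb H3K4me3 lies at 97.1% and 98.2% and H3K4me1 of LCC at 75.1% and 71.4% in lacking and acetylated sites.

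The acetylation found at the sites scored below the list median in TGFb and SO1 and above it in H2030, and in all 3 below that at all LCC H3K4me3 sites. The median H3K27ac score at the sites that had a summit was 8.51 in TGFb, where the list median was 20.9. In SO1 it was 9.98 with a list median of 30.1, and in H2030 23.0 with a list median of 15.5. Over all LCC H3K4me3 sites with a summit the median scores were 137, 100.0 and 148 in that order. Summits at or above the list median stood at 101 of 742 sites in TGFb and 123 of 864 in SO1, but at 696 of 1111 in H2030. These were 2.53%, 3.08% and 17.4% of the 3993 sites, against 67.2%, 59.4% and 58.7% of all LCC H3K4me3 sites. At isolated sites they numbered 49 in TGFb, 77 in SO1 and 503 in H2030.

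**Figure D3:**
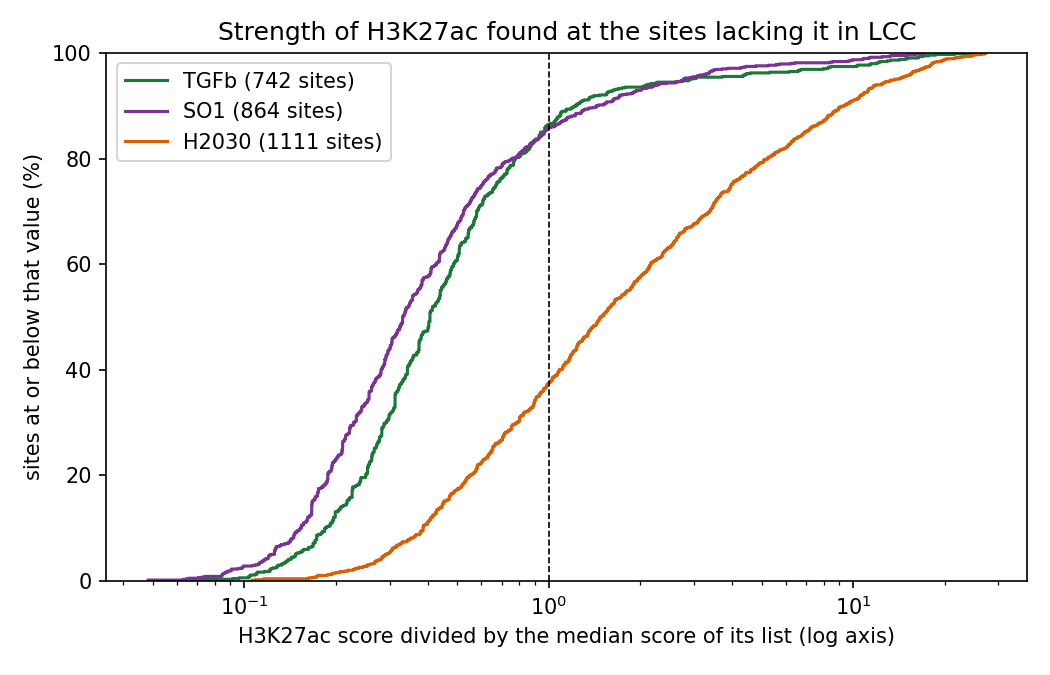
The curves give the cumulative percentage of sites lacking LCC H3K27ac by the H3K27ac score found there in TGFb (742 sites), SO1 (864) and H2030 (1111), divided by the median score of each list on a log axis. The dashed line marks the list median; the H2030 curve lies to the right of the other 2 over most of its range.

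The 2 LCC replicates give 1 example of how profiles of the same condition can differ, and not a measure of that spread. Both were used by the rule, so the comparison is a description. Of 4501 sites lacking replicate 2, replicate 1 had a summit within 1 kb at 10.1%, and TGFb, SO1 and H2030 had one at 21.9%, 25.3% and 28.9%. Of 5566 sites lacking replicate 1, replicate 2 had one at 26.7%, and the other conditions at 35.1%, 33.2% and 33.5%. The replicates differ in list length, and the baseline depends strongly on which of them defines the sites. All 3 conditions lay above the replicate in both readings, and closer to it where replicate 2 was the one compared. List lengths were not matched here. Replicate 1 had 50628 summits in use and replicate 2 62947, while TGFb had 68069, SO1 56279 and H2030 52414. At the sites lacking both replicates the TGFb and SO1 shares fell when lists were cut to equal length. The comparison with the replicate was not tested at equal length, so the excess of TGFb may in part reflect its longer list.

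Summits at or above the list median separated H2030 more clearly from that baseline. At the sites lacking replicate 2, replicate 1 had one at 4.42%, TGFb at 4.47%, SO1 at 5.78% and H2030 at 18.8%. At those lacking replicate 1, replicate 2 had one at 6.88%, TGFb at 11.2%, SO1 at 6.16% and H2030 at 22.8%. H2030 thus lay above the replicate in both, TGFb lay close to replicate 1, and SO1 lay below replicate 2. The bar was not equal, since the list median was 12.6 for replicate 1 and 13.5 for replicate 2. H2030 had a median near these (15.5), whereas that of TGFb was 20.9 and that of SO1 30.1. With any summit counted, SO1 lay above replicate 2 (33.2% against 26.7%). The places of TGFb and SO1 against the baseline thus depend on the threshold. With no summit of replicate 1 allowed within 10 kb (4245 sites), replicate 2 had a summit at or above its list median at 5.75% of sites, SO1 at 5.47%, TGFb at 10.0% and H2030 at 22.4%. With replicate 2 as the one lacking (3220 sites), replicate 1 had such a summit at 0.559%, TGFb at 2.39%, SO1 at 3.23% and H2030 at 17.9%. At that distance too H2030 lay farthest above the replicate. With 1 pair of replicates, both used by the rule, nothing is read from this order of the conditions.

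Acetylation was more frequent at sites with more H3K4me3. Between LCC H3K4me3 scores of 10 and 20, H3K27ac was found at 12.3% of sites in TGFb, 12.6% in SO1 and 16.3% in H2030. At scores of 200 or more it was found at 32.8%, 37.1% and 52.8%. Over all LCC H3K4me3 sites the shares were 53.5%, 50.4% and 30.8% in the lowest range and 91.9%, 89.5% and 84.5% in the highest. The lowest range holds a larger part of sites lacking H3K27ac than the highest. At acetylated sites the shares went from 87.2% to 95.6% in TGFb, 83.1% to 93.3% in SO1 and 43.3% to 87.3% in H2030. The state of H3K4me3 in the same condition went with it as well. In H2030 the share with H3K27ac was 3.74% where H2030 had no H3K4me3 summit, 26.3% where its H3K4me3 was below the list median, and 65.6% of 1014 sites where it was at or above it. In SO1 those shares were 2.65%, 16.3% and 41.9%, and in TGFb 7.76%, 15.3% and 28.1%. Acetylated sites showed a rise too, with 24.4%, 71.1% and 94.2% in H2030. There the shares were 57.3%, 87.8% and 94.0% in SO1, and 68.1%, 90.1% and 95.7% in TGFb. A strong H3K4me3 site without acetylation in LCC was still without it in TGFb in most cases.

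Of the 3993 sites, 2162 (54.1%) had H3K27ac in none of the other 3 conditions, against 12.9% of all LCC H3K4me3 sites. Only 180 sites (4.51%) had it in all 3, against 55.1% of all sites. The sites with none had a median LCC H3K4me3 score of 31.7, and those with all 3 a median of 133. Over all LCC H3K4me3 sites those medians were 36.2 and 453. All LCC H3K4me3 sites include the sites lacking H3K27ac. At acetylated sites the medians were 226 with none, 155 with 1, 143 with 2 and 461 with all 3, so there was no steady rise. Lack of acetylation in the other conditions thus went with a lower H3K4me3 score at the sites lacking H3K27ac.

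Named sites show the range of these patterns. The isolated sites were ranked after their values had been seen. The strongest isolated site, chr9:116638832, scored 538.9 for H3K4me3 in LCC, 588.1 in TGFb, 672.6 in SO1 and 541.7 in H2030. Its nearest LCC H3K27ac lay 226269 and 164704 bp away, its SO1 summit scored 6.50, TGFb had none, and H2030 scored 240.8. H3K4me3 there was strong in all 4 conditions, and strong acetylation was in H2030.

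Other strong isolated sites differed in which condition was acetylated. At chr12:49582445 (LCC H3K4me3 479.3) H3K27ac scored 43.3 in TGFb, 144.0 in SO1 and 123.8 in H2030, and the LCC summits lay 13101 and 13268 bp away. At chr6:163148594 (510.4) it scored 5.81 in TGFb, 18.1 in SO1 and 41.6 in H2030. At chr5:785209 (464.0) no condition had H3K27ac within 10 kb, although H3K4me3 scored 491.9 in TGFb, 441.5 in SO1 and 515.5 in H2030. This site kept a strong promoter mark without nearby acetylation in all 4 conditions. The same held at chr2:33172085 (420.5), chr17:80656299 (410.2) and chr13:52703023 (378.7), whose nearest H3K27ac in every condition was between 17736 and 62871 bp away.

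The strongest H3K27ac of TGFb and SO1 at the sites mostly lay beside strong LCC acetylation. At chr17:57861217 TGFb scored 568.7 and SO1 452.9, and LCC summits of 262.7 and 371.6 lay 3779 and 3730 bp away. At chr17:7747649 TGFb scored 449.1 and SO1 481.4, with LCC summits at 2222 and 2207 bp. An exception was chr17:39677827, with 369.6 in TGFb and 395.5 in SO1, where the LCC summits at 4208 and 4385 bp scored 8.13 and 10.6. Among isolated sites the strongest TGFb H3K27ac was at chr20:56323999 (137.6), where H2030 also had a summit (98.4) and SO1 none. At chr19:1325217 TGFb scored 111.1 and neither SO1 nor H2030 had a summit within 1 kb. The strongest of SO1 were chr12:49582445 above and chr2:75466476 (131.0), where TGFb scored 57.5 and H2030 350.9. At chr14:33408908 SO1 scored 128.5, H2030 6.58, and TGFb had none.

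The strongest isolated H2030 site was chr22:22901522. H3K4me3 scored 44.8 in LCC, 61.9 in TGFb and 558.2 in H2030, with no SO1 summit within 1 kb, and the H2030 H3K27ac score was 417.2. At chr6:127440034 H3K4me3 scored 26.6 in LCC, 66.9 in TGFb, 405.8 in SO1 and 556.0 in H2030, while H3K27ac was found in H2030 alone (376.3). At chr6:166401372 H3K4me3 scored 135.1 in LCC, 109.3 in TGFb, 306.8 in SO1 and 507.2 in H2030, and H3K27ac was again found in H2030 alone (316.0). H3K4me3 was weak in LCC and far higher in rank in H2030 at such sites, and at the last 2 it was also high in SO1 without H3K27ac.

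Of the 1036 sites with LCC acetylation within 10 kb, 301 had H3K27ac in H2030 at the site itself. At 42.5% of those (37.1 to 48.2) H2030 also had a summit within 500 bp of the LCC one, against 38.2% (34.8 to 41.8) of the 735 without H3K27ac at the site. In TGFb the shares were 61.1% (54.7 to 67.1) of 234 and 64.7% (61.3 to 67.9) of 802. In SO1 they were 65.5% (58.5 to 71.8) of 194 and 58.2% (54.8 to 61.5) of 842. The intervals overlapped in each condition, which does not show that the shares were equal, and a difference was not tested.

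H3K4me3 itself was shared widely within the H2087-LCC conditions and less so with H2030. TGFb had an H3K4me3 summit at 97.1% of the sites lacking H3K27ac, against 97.9% of all LCC H3K4me3 sites. SO1 had one at 87.7% against 94.0%, and H2030 at 62.5% (61.0 to 64.0) against 75.0%. All 3 conditions had it at 2269 sites (56.8%, against 72.6% of all), and none had it at 54 (1.35%, against 0.829%).

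At equal LCC strength the order for H2030 was the opposite. Between scores of 10 and 20, H2030 H3K4me3 was found at 43.9% (40.9 to 47.0) of sites lacking H3K27ac and 25.1% (22.8 to 27.7) of acetylated sites. Between 20 and 50 the shares were 52.9% and 36.6%, between 50 and 100 70.9% and 52.6%, and between 100 and 200 77.2% and 61.0%. The intervals of both sets were apart in each of these 4 ranges. At 200 or more the shares were 88.9% and 93.0%, but there the LCC scores were not matched, with medians of 280 and 474. Over all scores the sites lacking H3K27ac had the lower share, and within the ranges up to 200 H2030 shared more of them than of acetylated sites.

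**Figure D4:**
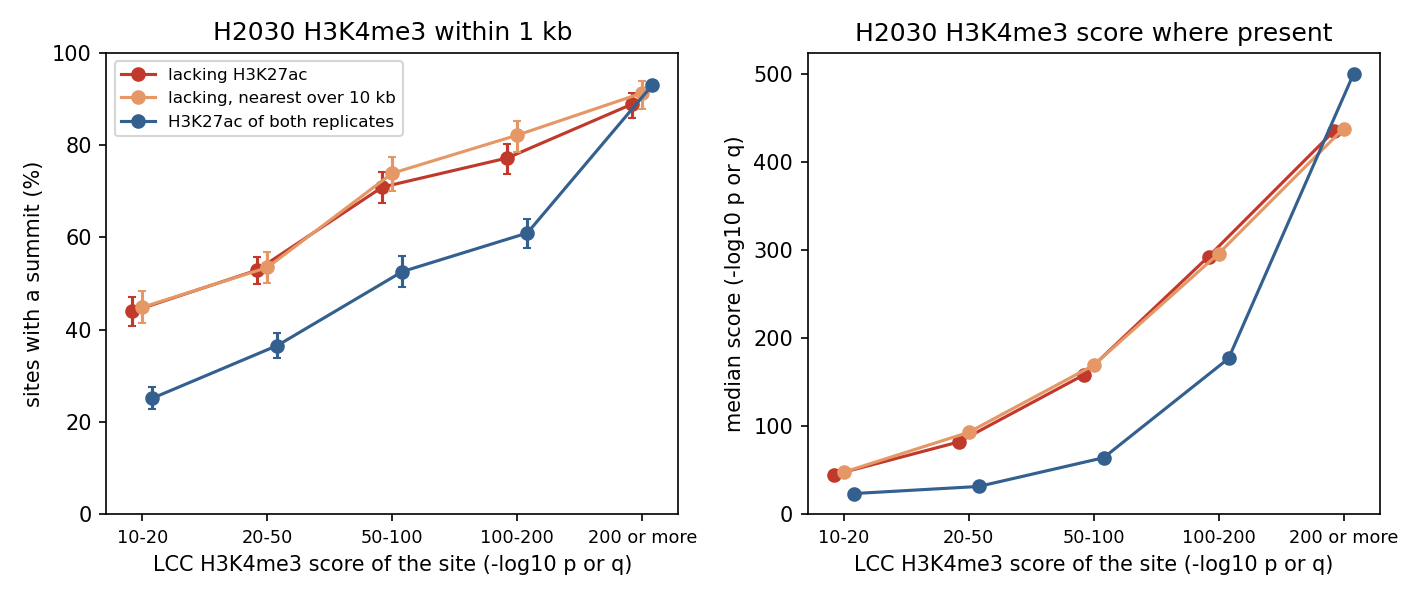
Left, the percentage of LCC H3K4me3 sites with an H2030 H3K4me3 summit within 1 kb, with Wilson 95% intervals; right, the median H2030 H3K4me3 score where a summit was present; both by the LCC H3K4me3 score of the site. Sites lacking H3K27ac, isolated or not, lie above acetylated sites in the 4 ranges up to 200 and below them in the last.

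The strength of the H2030 summits followed the same order. Between LCC scores of 50 and 100 the median H2030 H3K4me3 score was 158 at sites lacking H3K27ac and 64.0 at acetylated sites, and between 20 and 50 it was 81.9 and 31.4. Of the 3429 sites lacking H3K27ac below the LCC list median, 613 (17.9%, 16.6 to 19.2) were at or above the H2030 list median, against 217 of 4123 acetylated sites (5.26%, 4.62 to 5.99) and 10.8% of all LCC H3K4me3 sites below that median. In TGFb the shares of lacking, acetylated and all sites were 15.5%, 15.4% and 15.9%, and in SO1 17.1%, 16.2% and 16.7%. Of the 613 sites 63.1% had H3K27ac in H2030, against 42.6% of the corresponding 585 sites in SO1 and 23.5% of 532 in TGFb. Over all LCC H3K4me3 sites chosen in this way the shares were 71.7% in H2030, 70.5% in SO1 and 62.4% in TGFb. The sites lacking H3K27ac are part of those sets and were chosen as low for this mark in LCC. Nothing is therefore read from the gaps or their order. Weak sites lacking acetylation in LCC thus included more sites that were strong H3K4me3 sites of H2030 than weak acetylated ones did.

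Some sites had no H3K4me3 in another condition for a long way. No H3K4me3 summit lay within 10 kb at 52 sites in TGFb (1.3%, against 0.600% of all LCC H3K4me3 sites), 327 in SO1 (8.19% against 3.06%) and 1139 in H2030 (28.5% against 17.3%). No summit of any mark lay within 50 kb at 6 sites in TGFb, 70 in SO1 (1.75%, against 0.431% of all LCC H3K4me3 sites) and 296 in H2030 (7.41% against 2.88%). Missing DNA and missing marks cannot be told apart in these lists. The strongest site without H3K4me3 of another condition within 1 kb, chr15:69113681 (541.0), had such summits at 1789, 1759 and 2605 bp, and that at chr7:151574460 (219.1) at 1052, 1045 and 1037 bp, so H3K4me3 lay a short distance off at both.

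H3K4me1 was not used to choose the sites. LCC H3K4me1 was within 1 kb of 2997 of the 3993 sites, 75.1% (73.7 to 76.4), against 72.9% of all LCC H3K4me3 sites. TGFb had H3K4me1 at 72.4% against 71.6%, SO1 at 73.9% against 73.0%, and H2030 at 55.4% against 59.2%. The shares thus lay near the background. The strength differed: the median LCC H3K4me1 score where present was 11.9 at sites lacking H3K27ac, close to the list median of 11.6, and 24.2 at acetylated sites. Between H3K4me3 scores of 10 and 20 the share with LCC H3K4me1 was 61.1% at sites lacking H3K27ac and 81.5% at acetylated sites. At 200 or more it was 88.7% and 67.8%, but there the LCC H3K4me3 scores were not matched, with medians of 280 and 474. The sign of the difference in share depended on the distance within which H3K4me1 was read. Within 500 bp the sites lacking H3K27ac had the higher share in the first range too, by 6.12 percentage points. Within 2 kb they had the lower share in the last, a difference of -2.83 percentage points.

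The place of H3K4me1 differed between the sets. Where an LCC H3K4me1 summit lay within 1 kb, its median distance from the H3K4me3 site was 237 bp (quartiles 115 and 415) at sites lacking H3K27ac and 628 bp (451 and 785) at acetylated sites. Between H3K4me3 scores of 50 and 100 the medians were 219 and 446.5 bp, and between 10 and 20 they were 175.5 and 427 bp. At 200 or more, where the LCC H3K4me3 scores were not matched, they were 380 and 684 bp, and for the 309 isolated sites of that range 367 bp. An H3K4me1 summit lay within 500 bp at 69.8% (66.4 to 73.0) of sites lacking H3K27ac and 47.5% (44.2 to 50.9) of acetylated sites between 50 and 100. Within the score ranges up to 200, H3K4me1 thus lay nearer the H3K4me3 summit at the sites lacking acetylation than at acetylated sites.

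**Figure D5:**
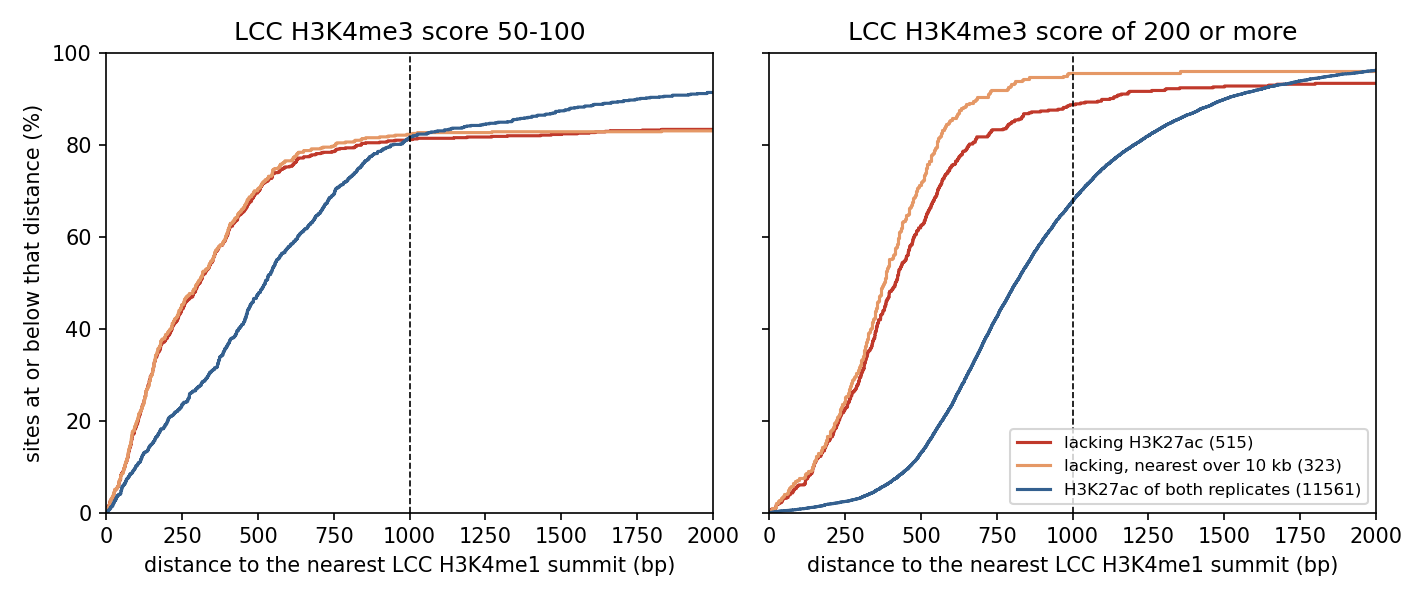
The curves give the cumulative percentage of sites by distance in bp from the LCC H3K4me3 site to the nearest LCC H3K4me1 summit, for LCC H3K4me3 scores of 50 to 100 (left) and 200 or more (right); the number of sites with a score of 200 or more is in the legend. In both panels the curves of the sites lacking H3K27ac climb at shorter distances than that of the acetylated sites, and the dashed line marks 1 kb. The LCC H3K4me3 scores of the sets were not matched in the right panel.

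The other conditions gave the same order at these sites. Between LCC H3K4me3 scores of 50 and 100 the median distance to H3K4me1 of the same condition was 217 bp at sites lacking H3K27ac and 456 bp at acetylated sites in TGFb, 240 and 430.5 bp in SO1, and 301 and 385 bp in H2030. The comparison has 1 library per condition, and these 3 are separate libraries from the LCC one.

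At isolated sites the distance also differed with acetylation in the condition itself. Medians are given over the isolated sites with an H3K4me1 summit within 1 kb in both LCC and the other condition, a choice made after seeing the data, so both libraries are read at the same sites. In H2030 the median distance to H3K4me1 was 432 bp at the 591 such sites with H2030 H3K27ac and 232.5 bp at the 762 without, and the LCC summits lay at 265 and 216.5 bp. In SO1 the medians were 367 bp at 491 sites and 188 bp at 1421, with LCC summits at 316 and 212 bp. In TGFb they were 329 bp at 365 sites and 205.5 bp at 1576, with LCC summits at 338 and 212 bp. The difference between sites with and without acetylation was thus larger in H2030 and SO1 than in LCC at the same sites, and in TGFb it was close to that of LCC. Sites with H3K27ac in H2030 had a higher median LCC H3K4me3 score (91.7 against 34.6), and the part of that difference was not tested.

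The share of isolated sites with H3K4me1 differed as well. H2030 H3K4me1 was found at 87.7% (85.2 to 89.7) of the 810 isolated sites with H2030 H3K27ac and 42.8% (40.7 to 44.9) of the 2147 without. In SO1 the shares were 87.6% of 670 and 69.7% of 2287, and in TGFb 78.0% of 508 and 70.6% of 2449. LCC H3K4me1 at the H2030 sets was found at 80.2% and 72.6%. Over all LCC H3K4me3 sites the H3K4me1 shares were 59.2% in H2030, 73.0% in SO1, 71.6% in TGFb and 72.9% in LCC. H2030 had no H3K4me3 summit at 1067 isolated sites, and 22 of these had H2030 H3K27ac. The set without H2030 H3K27ac thus mixes sites with and without H2030 H3K4me3. A site lacking acetylation in LCC that had it in H2030 thus had H3K4me1 in both lines in most cases.

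The 3993 sites were spread over the genome. They made up between 12.9% of the LCC H3K4me3 sites of chromosome 16 and 24.7% of those of chromosome 4. Of 2433 windows of 500 kb with at least 1 such site, 1513 held 1 and 60 held 5 or more. The fullest windows were chr19:12500001-13000000, with 11 of its 33 LCC H3K4me3 sites, and chr6:28500001-29000000, with 11 of 27. In the nearby window chr6:27000001-27500000 it was 10 of 23, and H2030 had H3K4me3 at 9 and H3K27ac at 7 of those 10. In chr6:28500001-29000000 H2030 had them at 7 and 5 of the 11, and in chr19:12500001-13000000 at 7 and 3 of the 11. Over all 3993 sites the H2030 shares were 62.5% and 27.8%, and over all LCC H3K4me3 sites 75.0% and 64.8%. An acetylated H3K4me3 site lay within 10 kb of 607 of the 3993 sites (15.2%), and the median distance to one was 50.1 kb.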

How the data were processed

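Deposited peak files of 13 immunoprecipitated libraries were used, and 5 input libraries were not analysed here. The submitters' processing notes name Bowtie2, SAMtools and deepTools, and hg19 as the build. For the peak caller and for its parameters the sources used here give no name or value. Per the file contents, the authors' deposited summits are 1 bp wide and were called per library. Their deposited score was taken to be −log10 of p or of q, which was not settled, because its minimum over all files, 1.30107, sits just above 1.30103, the value for 0.05.

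Sequences other than chromosomes 1 to 22 and X were dropped, between 29 and 238 summits per library. A site carried a mark when a summit lay within 1 kb. Distances to H3K4me1 and the ranking of isolated sites were added after the values were seen. The members and lists were chosen with earlier results of these data known. Sites were named by rank: the 10 with the highest LCC H3K4me3 score, the 5 with the highest H3K27ac of each other condition, the 5 strongest without H3K4me3 or without H3K27ac of another condition, 3 on each side of each threshold, and the 3 with most merged summits. The text gives a part of them. The reference tables are of a later build, so no gene was named and no sequence printed.

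Python 3.11.15, pandas 2.3.3, NumPy 2.4.6 and SciPy 1.17.1 were used, and the site rule was tested on simulated data. No test across samples was run, since conditions have 1 library per mark. Alternatives were other score minimums, distances, merging, look-up windows, list lengths and leaving out each LCC H3K27ac replicate.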

Additional observations from a re-analysis of the deposited data

How the results depend on the processing

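Each alternative changed 1 choice. The number of sites lacking H3K27ac was 1887 with a score of at least 50. The percentage of sites with a mark moved outside its interval as follows. With a score of at least 5, H3K27ac was 17.0% in TGFb, 19.4% in SO1 and 24.8% in H2030, H3K4me3 91.2%, 82.0% and 57.0%, and H3K4me1 68.8%, 69.5% and 52.1%, with 71.9% in LCC. At least 20 gave, in the same order, 20.7%, 24.6% and 31.7%, then 98.7%, 92.3% and 68.7%, and 77.6%, 79.8% and 60.0%, with 79.7% in LCC. At least 50 gave 23.7%, 28.5% and 38.3%, then 98.9%, 95.9% and 78.0%, and 84.4%, 87.7% and 67.7%, with 85.3% in LCC. With no LCC H3K27ac within 1 kb, TGFb H3K4me3 was 96.4% and H3K4me1 72.1% in LCC, 70.4% in TGFb and 71.1% in SO1. With none within 5 kb TGFb H3K4me3 was 97.8%. With none within 10 kb TGFb H3K27ac was 17.2%, TGFb H3K4me3 97.9% and SO1 H3K4me3 89.2%. Marks read within 500 bp gave H2030 H3K27ac 25.5%, H3K4me3 96.2% in TGFb and 60.2% in H2030, and H3K4me1 63.2% in LCC, 61.6% in TGFb, 61.5% in SO1 and 39.6% in H2030. Within 2 kb H2030 H3K27ac was 29.5% and H3K4me1 77.9%, 75.8%, 77.2% and 60.4% in that order. Only summits scoring at least 5 gave H3K27ac 15.1% in TGFb, 18.9% in SO1 and 25.9% in H2030, TGFb H3K4me3 96.0%, and H3K4me1 66.3% in LCC, 62.3%, 67.8% and 49.3%. At least 10 gave H3K27ac 7.61%, 10.8% and 21.1%, H3K4me3 91.9%, 83.1% and 58.3%, and H3K4me1 44.3% in LCC, 41.9%, 52.8% and 34.6%. Lists of equal length gave H3K27ac 11.2% in TGFb and 19.1% in SO1, and H3K4me3 95.5% and 85.8%. The cause was not tested, beyond fewer summits being counted under the stricter settings.

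Leaving out each LCC H3K27ac replicate gave between 4501 and 5566 sites. H3K27ac then ranged from 21.9% to 35.1% in TGFb, 25.3% to 33.2% in SO1 and 28.9% to 33.5% in H2030. H3K4me3 ranged from 96.6% to 97.3%, 87.3% to 89.5% and 61.4% to 64.6%, and H3K4me1 from 71.7% to 75.1%, 72.9% to 76.4% and 54.6% to 57.8%, with 74.2% to 77.3% in LCC. Every share with H3K27ac was higher than in the main setting with either replicate left out, and highest without replicate 2. Sites with a summit of the replicate left out then counted as lacking.

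The difference in LCC H3K4me1 share between sites lacking H3K27ac and acetylated sites changed sign in 10 cases. Between H3K4me3 scores of 50 and 100, -0.48 percentage points became 1.67 with none within 5 kb, 2.01 with none within 10 kb, 22.3 within 500 bp, and from -2.33 to 1.26 when a replicate was left out. Within 500 bp it was also 6.12 between 10 and 20 and 17.0 between 20 and 50. Within 2 kb it was -4.81 between 100 and 200 and -2.83 at 200 or more, and between 100 and 200 it was -0.26 with summits of at least 5 and -12.8 with at least 10. The higher H2030 H3K4me3 share up to 200 and the shorter distance to H3K4me1 kept their sign under every alternative run. No paired analysis was possible because only LCC H3K27ac and its inputs share replicate numbers, and the inputs were not analysed here. Summits without widths limit what can be said of sites near 2 kb, single libraries leave the spread of each condition unknown, and scores depend on an unknown depth.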
